A study of Mus musculus with 60 samples.

Results

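Expression of 8 genes of PPAR-alpha signalling and fatty acid oxidation was followed through 3 RNA-seq experiments on mouse cholangiocyte-derived liver organoids. The genes were the receptor gene Ppara together with Fabp1, Cpt1a, Acadl, Acadm, Hadha, Ehhadh and Pdk4, taken by Ensembl identifier from count tables that listed 31354 genes between them. PPAR-alpha is a nuclear receptor that is activated by fatty acids and binds DNA as a heterodimer with RXR at response elements built from a pair of AGGTCA-like half-sites. Its best known role is in hepatocytes during fasting, where it raises genes for fatty acid transport, for oxidation in mitochondria and peroxisomes and for the synthesis of ketone bodies. Long-chain fatty acids enter mitochondria as carnitine esters, which is the step of Cpt1a, and are then shortened by acyl-CoA dehydrogenases such as Acadl and Acadm and by the trifunctional protein, of which Hadha encodes the alpha subunit.

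All organoids were grown from intrahepatic cholangiocytes of C57BL/6N mice, 3 to 4 months old by the labels, and every culture was started in Matrigel domes. The culture experiment compared 3 dome with 3 shaking suspension cultures in 10% Matrigel, made from pools of 2, 4 and 3 mice. The passage experiment followed Sets 1, 3 and 4 in bulk from passage 4 to passage 11. The labels call these organoid pools, each culture had 2 technical replicates, and these were summed. The last experiment sequenced single organoids picked from suspension, of which 35 of 42 were kept (8, 10, 5 and 12 in Sets 1 to 4). By the study's methods each set came from 1 mouse, and Set 1 was harvested at passage 11, Sets 2 and 3 at passage 3 and Set 4 at passage 4. Mouse and passage can therefore not be told apart between sets, and organoids of a set share an animal.

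Library totals ran from 1776490 to 14761853 counts in the culture experiment, from 1486347 to 5532630 in the passage experiment and from 1059002 to 11175868 in single organoids. Levels are given as CPM, the count scaled to the library total after TMM normalisation, so that 1 CPM stood for 1.09 to 14.5 counts. All 13 cholangiocyte markers had counts in every group, with summed levels of 3724 to 12140 CPM per library. Hepatocyte genes were present in part. Serpina1a and Pck1 had no count in any group and Alb reached at most 44.02 CPM in a library, while the 15 hepatocyte markers summed to 286 to 2669 CPM. No group had more than 4 of the 6 endothelial or 3 of the 6 mesenchymal markers, and neither list summed to over 3.84 CPM in a library.

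Ppara, the receptor, was barely detected. Its gene lies on chromosome 15 (85734983 to 85802819, plus strand, GRCm38) and gave 8 counts in the 6 culture libraries, 2 in the 6 passage libraries and 62 in the 35 single organoids. Ehhadh, the bifunctional enzyme of peroxisomal oxidation (chromosome 16, 21761287 to 21787807, minus strand), gave 4, 10 and 21 counts. Pdk4, a kinase that restrains pyruvate dehydrogenase (chromosome 6, 5483351 to 5496309, minus strand), gave 5, 1 and 4 counts. In the culture and passage experiments none of the 3 genes passed the filter on low counts, and Ehhadh and Pdk4 did not pass it in single organoids either. A count of 0 allowed a level of up to 0.207 to 2.76 CPM, depending on the library, so low expression of these genes was not detectable in the shallow libraries. The other members were Fabp1, Cpt1a, Acadl, Acadm and Hadha, and these 5 of 8 were tested in both bulk experiments.

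The first comparison asks what the culture method changed. In domes, Hadha and Fabp1 rose, and no member fell. Hadha (chromosome 5, 30118304 to 30155162, minus strand) was 1.64-fold higher in domes, and Fabp1, the liver-type fatty acid binding protein (chromosome 6, 71199827 to 71205023, plus strand), was higher by 2.17 on the log2 scale. These were 2 of 5 members tested, where 29.8% of the 12699 genes tested were called, 15% higher and 14.7% lower. Fabp1 passed the filter on low counts through the domes, where it is high, so a difference was partly built into its being tested. Among the other members tested, Hadha was the only call. The dome and suspension values did not overlap for 4 of the 5 members, Fabp1 included, against 47.4% of all genes.

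Hadha stood at 70.4, 57.9 and 62.1 CPM in the 3 dome cultures and at 36.0, 39.96 and 40.9 CPM in suspension. Every dome culture lay above every suspension culture. The log2 fold change of dome over suspension was 0.71 (SE 0.18, adjusted p 0.0159, edgeR quasi-likelihood test with Benjamini-Hochberg adjustment). Fabp1 stood at 26.9, 13.2 and 12.6 CPM in domes and at 11.2, 0.473 and 1.79 CPM in suspension. The groups did not overlap, although the first suspension culture came close to the lowest dome, and the first culture was the highest in both groups. Its log2 fold change was 2.17 (SE 0.74), at an adjusted p of 0.0497 in edgeR. Fabp1 rested on few counts, 18 and 23 in the smaller dome libraries and 2 in the second suspension library.

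Both are shown with the DNA before their start, since Fabp1 was the 1 member whose window held a direct repeat of the type PPAR binds. The 250 bases before each RefSeq start (GRCm38.p6) were taken, and the stretches printed stop before the first annotated exon of the gene. All windows were searched on both strands for AGGNCANAGGNCA, in which 2 half-sites are 1 base apart, for its strict form AGGTCANAGGTCA and for the half-site AGGTCA, which can overlap the first motif. Of 32851 mouse windows, 0.338% held the first motif, 0.0335% the strict form and 14% the half-site. Matches are in capitals, Fabp1 at chr6:71199629-71199826 on the plus strand and Hadha at chr5:30155163-30155230 on the minus strand.
Fabp1: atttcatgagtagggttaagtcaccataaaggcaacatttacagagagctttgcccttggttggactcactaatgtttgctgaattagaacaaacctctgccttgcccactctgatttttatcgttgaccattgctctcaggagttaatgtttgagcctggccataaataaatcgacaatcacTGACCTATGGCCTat
Hadha: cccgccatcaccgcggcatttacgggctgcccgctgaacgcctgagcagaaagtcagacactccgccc
The Fabp1 match, TGACCTATGGCCT, is the reverse strand of the first motif and lies at 71199812 to 71199824 on chromosome 6, 67 to 55 bases before the RefSeq start. A half-site overlaps it, and another lies 9 to 4 bases before that start, past the printed stretch. No window of the other members held the first motif, and Cpt1a and Acadm each held 1 half-site. Sequence outside these windows was not searched and binding was not measured, so the matches do not show which members PPAR-alpha binds.

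The remaining members did not pass the test. Cpt1a (chromosome 19, 3322334 to 3385733, plus strand), the outer-membrane carnitine palmitoyltransferase, stood at 29.2, 20.5 and 30.2 CPM in domes and 16.4, 18.7 and 19.3 CPM in suspension, a log2 difference of 0.57 (95% interval 0.09 to 1.06, adjusted p 0.0708). Acadm (chromosome 3, 153922357 to 153944632, minus strand), the medium-chain acyl-CoA dehydrogenase, stood at 82.6, 55.7 and 58.8 CPM against 46.5, 45.6 and 48.6 CPM. Its log2 difference was 0.50 (95% interval 0.05 to 0.96, adjusted p 0.0858). For both genes all 3 domes lay above all 3 suspension cultures, and in both the call appeared once the second dome library was left out (adjusted p 0.0211 and 0.0382). Acadl (chromosome 1, 66830839 to 66863277, minus strand), the long-chain acyl-CoA dehydrogenase, stood at 113, 117 and 92.4 CPM against 101, 105 and 92.2 CPM. Here the groups overlapped and the difference was 0.12 (95% interval -0.29 to 0.52).

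**Figure D1:**
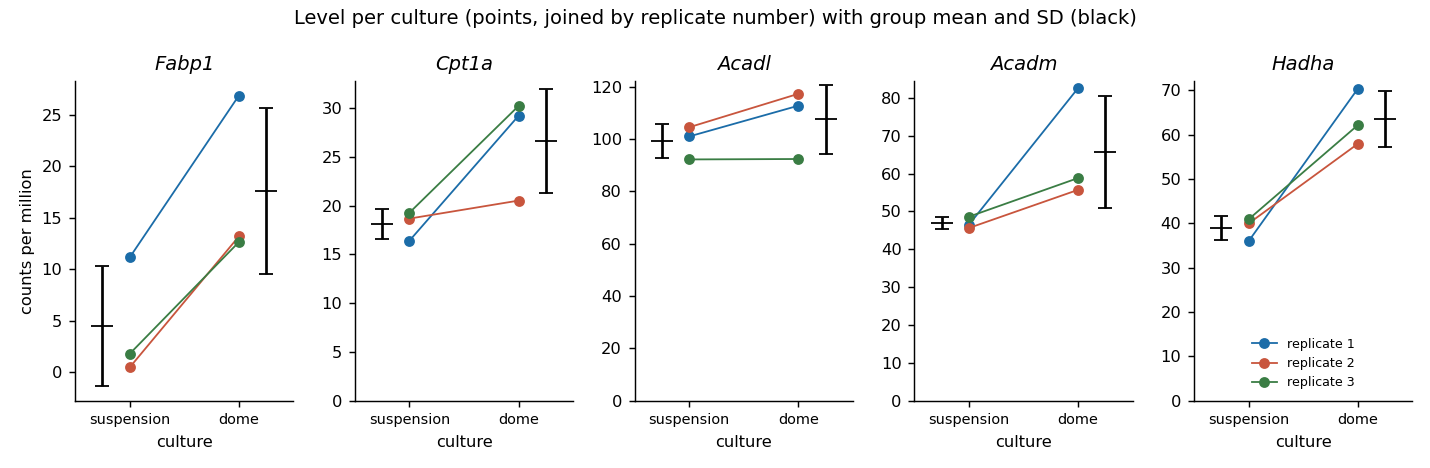
Level in CPM (vertical axis) of the 5 tested members in 3 suspension and 3 dome cultures, as points joined by replicate number, with the group mean and SD in black. Hadha lies at 36.0 to 40.9 CPM in suspension and 57.9 to 70.4 CPM in domes, and the Acadl points overlap.

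The scale mattered here. TMM factors (normalisation of library totals) were 0.724 to 1.02 in domes and 1.10 to 1.20 in suspension, and mitochondrial genes took 1.64 to 2.02% of counts in domes and 3.72 to 4.02% in suspension. With library totals and no TMM factors, the median log2 fold change of all genes moved from -0.04 to -0.42 and the share of calls that were higher in domes from 50.5% to 21.8%. Hadha was then 0.33 (adjusted p 0.325), Fabp1 1.76 (0.0812) and Acadl -0.28 (0.315), so that no member was called. Relative to the median of all genes, Hadha was 0.75 higher and Fabp1 2.20 and 2.17 higher with and without the factors. The Hadha call was also lost without any 1 of the suspension cultures (adjusted p 0.066 to 0.0829), and that of Fabp1 without any 1 dome culture or without suspension culture 2 or 3 (0.051 to 0.194).

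The wider pathway was read from 8 lists of 119 further genes, of which 93 were tested. In domes 34 were higher and 4 lower, where 15% of all genes tested were called higher and 14.7% lower. With library totals and no TMM factors, these 38 calls became 27. A list gene near 0 in suspension could pass the filter only through the domes, which partly fixed its call. The median log2 fold change was 0.49 against -0.04 for all genes tested. Of 17 peroxisomal oxidation genes tested, 10 rose and none fell, with a median of 0.93. Ehhadh of the same pathway had too few counts for a change to be read. Acaa1a, a peroxisomal thiolase, stood at 131, 138 and 149 CPM in domes and 45.5, 47.8 and 49.2 CPM in suspension (log2 1.55, SE 0.17, adjusted p 0.000817). Ech1 rose 3.15-fold. The calls of both genes held under all 14 alternatives, library totals included.

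Mitochondrial oxidation genes outside the 8 members followed, with 8 of 16 higher and none lower (median 0.68). Echs1, the short-chain enoyl-CoA hydratase, rose 2.49-fold, Etfb, a subunit of the electron transfer flavoprotein, 2.21-fold and the thiolase Acaa2 2.19-fold. Hadhb, which encodes the partner subunit of Hadha, stood at 30.3, 24.9 and 33.0 CPM in domes and 30.5, 35.0 and 31.3 CPM in suspension, with a log2 difference of -0.12 (95% interval -0.56 to 0.31). The very long-chain dehydrogenase Acadvl was called (1.85, adjusted p 0.0348), but its groups overlapped at 0.96 to 7.00 CPM and the call was lost with replicate number as a block (1.43, 0.0769). Cpt2 of the inner membrane differed by 0.05 (95% interval -0.39 to 0.48). Of 8 carnitine genes tested outside the members, 2 were called, and the list median was 0.085. Mlycd rose by 1.67 and the carnitine-acylcarnitine carrier Slc25a20 by 1.24 on the log2 scale, the latter call lost with library totals. The octanoyltransferase Crot stood at 36.2, 27.1 and 41.2 CPM in domes and 44.4, 49.4 and 73.8 CPM in suspension, and was not called.

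Among receptors and cofactors, 5 of 13 rose and 2 fell. Pparg, the adipogenic PPAR, rose from 22.1, 29.3 and 22.1 CPM in suspension to 44.01, 78.5 and 45.6 CPM in domes (1.17, adjusted p 0.00968). Rxra, the partner of PPAR-alpha on DNA, rose by 0.83, a call that 7 of 14 alternatives kept, and Ppard differed by -0.51 (adjusted p 0.244). Creb3l3, a liver and gut transcription factor that acts with PPAR-alpha, rose 11.0-fold from 0.24 to 1.52 CPM in suspension to 4.40 to 18.7 CPM in domes. Creb3l3 passed the filter through the domes, where it is high, so its place among the 5 that rose was partly fixed. Esrra rose by 1.41, and Ncor1, a corepressor, fell by 1.56. Fabp2, the intestinal binding protein, stood at 132, 11.7 and 7.15 CPM in domes and 4.21, 6.15 and 1.93 CPM in suspension. Its call (3.87, adjusted p 0.0148) was lost without dome culture 1 or suspension culture 1 or 3, and the first dome was the highest for Fabp1 as well. Slc27a4, a fatty acid transporter, rose 2.87-fold.

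Of 5 ketone body genes tested, 2 rose in domes and none fell, with a median of 1.22. Of the other PPAR-alpha targets, 3 of 15 rose and 1 fell, near the 29.8% called over all genes. The lipid droplet genes Cidec and Cidea rose 5.88-fold and 5.46-fold, the Cidea call being lost without dome culture 2 or suspension culture 1 or 3. Angptl4, a secreted inhibitor of lipoprotein lipase, fell by 1.04, a call lost without dome culture 1 or suspension culture 2, and the droplet coat gene Plin2 differed by 0.09 (95% interval -0.44 to 0.62). Cyp4a10 gave 9 counts in domes, 8 of them in dome culture 1, the deepest library, and 1 in suspension. Of the related kinases, Pdk1 and Pdk2 rose by 1.10 and 1.47 and Pdk3 fell by 1.54, next to the near absence of counts for Pdk4.

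Markers of other cell types and of growth moved with these groups. All 5 tested enterocyte markers were higher in domes, where 15% of all genes were called higher and 14.7% lower. A marker at or near 0 in suspension could pass the filter only through the domes, which partly fixed this count. The 8 enterocyte markers summed to 125 to 449 CPM in domes and 66.1 to 77.8 CPM in suspension. Lct was at 0 in both, and Sis and Cdx1 were at 0 in suspension only. Of 10 proliferation markers 9 were lower in domes, summing to 224 to 455 CPM against 768 to 987 CPM. Hepatocyte markers were called in both directions (2 higher and 1 lower of 7 tested) and their sums overlapped, at 310 to 855 and 286 to 675 CPM. The 7 macrophage markers summed to 6.93 to 93.1 CPM in domes and 3.37 to 9.46 CPM in suspension, with Clec4f and Lyz2 at 0 in both. The part of any of these in the levels of the fatty acid genes was not tested. In bulk cultures, fewer cells of a type and less RNA per cell cannot be told apart.

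**Figure D2:**
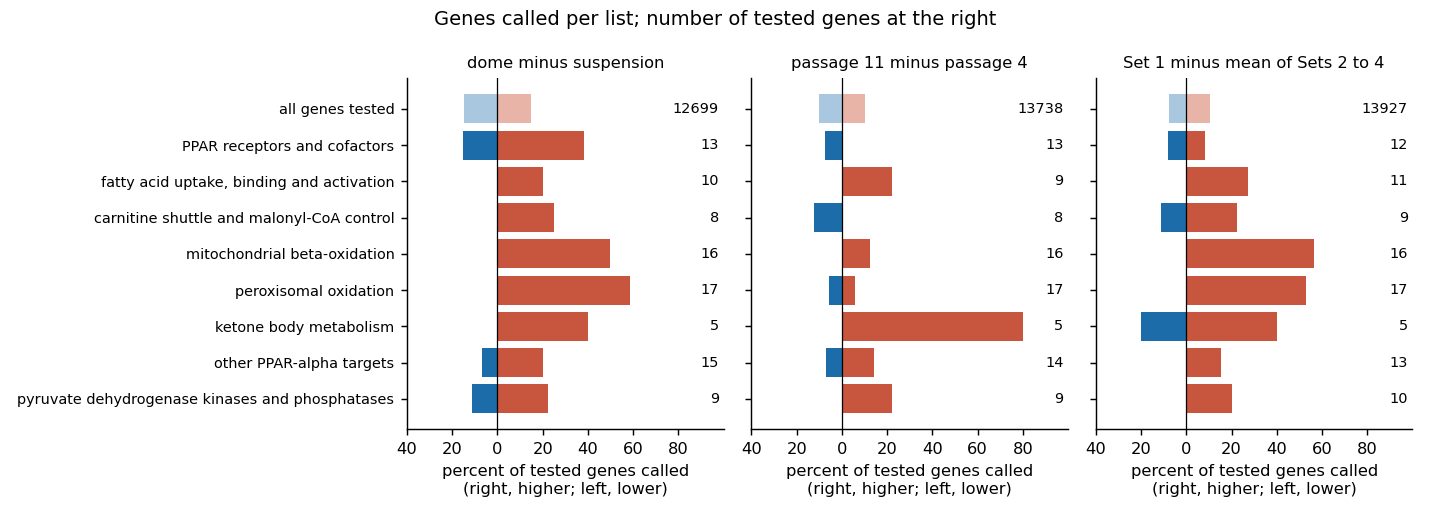
Share of the tested genes of each list called higher (to the right, in red) or lower (to the left, in blue) in 3 comparisons, with the number of genes tested at the right of each row and all genes tested in the top row. In domes 10 of 17 peroxisomal genes were higher and none lower, and at passage 11 the ketone body genes stand out with 4 of 5 higher.

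The second comparison asks what passaging changed in bulk cultures of 3 mice, and its directions follow the passage labels of the libraries. Acadm and Fabp1 rose from passage 4 to passage 11, and Hadha, Cpt1a and Acadl did not pass the test. These were 2 of 5 members, where 20.3% of 13738 genes were called and 10.1% were called higher. Acadm was 57.0, 61.2 and 63.6 CPM at passage 11 in Sets 1, 3 and 4 and 31.4, 42.6 and 43.5 CPM at passage 4. The groups did not overlap, and each set was higher at passage 11. The log2 difference was 0.62 (SE 0.16, adjusted p 0.0213, edgeR). The bases before its RefSeq start, at chr3:153944644-153944893 on the minus strand, hold 1 half-site near the upstream end, in capitals.
Acadm: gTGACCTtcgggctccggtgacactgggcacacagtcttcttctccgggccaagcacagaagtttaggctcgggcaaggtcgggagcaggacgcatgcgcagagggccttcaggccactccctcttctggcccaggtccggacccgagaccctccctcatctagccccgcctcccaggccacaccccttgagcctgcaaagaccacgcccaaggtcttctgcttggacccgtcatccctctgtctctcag

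Fabp1, whose window is printed above, was uneven among the sets. At passage 4 it stood at 1.30, 1.92 and 1.06 CPM in Sets 1, 3 and 4, on 5, 10 and 6 counts. At passage 11 it stood at 7.85 CPM in Set 1, at 24.1 CPM in Set 3 and at 0 in Set 4. As CPM of the unscaled total, the technical replicates at passage 11 were 7.63 and 6.76 in Set 1, 19.6 and 28.9 in Set 3 and 0 in both of Set 4, and those of Set 4 at passage 4 were 0.63 and 1.70. The groups overlapped, and the pooled log2 difference of 3.06 (SE 0.82, adjusted p 0.0256) was carried by Sets 1 and 3. In Set 4 at passage 11, a count of 0 allowed up to 1.91 CPM, so a fall from 1.06 CPM was not detectable there. That limit lies under the 7.85 and 24.1 CPM of Sets 1 and 3, so a rise to their levels was not seen in Set 4. Fabp2, the intestinal relative of Fabp1, stood at 4.26, 12.3 and 0.64 CPM in Sets 1, 3 and 4 at passage 11. The Set 4 value lay under the 1.91 CPM that a count of 0 allowed there.

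Hadha was 55.7, 67.8 and 57.9 CPM at passage 11 and 46.4, 53.4 and 54.5 CPM at passage 4. All passage 11 values lay above all passage 4 values, and the log2 difference was 0.24 (95% interval -0.08 to 0.55, adjusted p 0.274). Cpt1a was 13.9, 19.5 and 13.99 CPM at passage 11 and 19.4, 19.0 and 23.4 CPM at passage 4. Sets 1 and 4 were lower at passage 11 and Set 3 was not, and the difference was -0.36 (95% interval -0.80 to 0.08). Acadl was 141, 152 and 105 CPM against 159, 143 and 169 CPM, again with Set 3 apart, and differed by -0.23 (95% interval -0.58 to 0.12). Non-overlap held for 2 of the 5 members and for 39.5% of all genes tested.

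**Figure D3:**
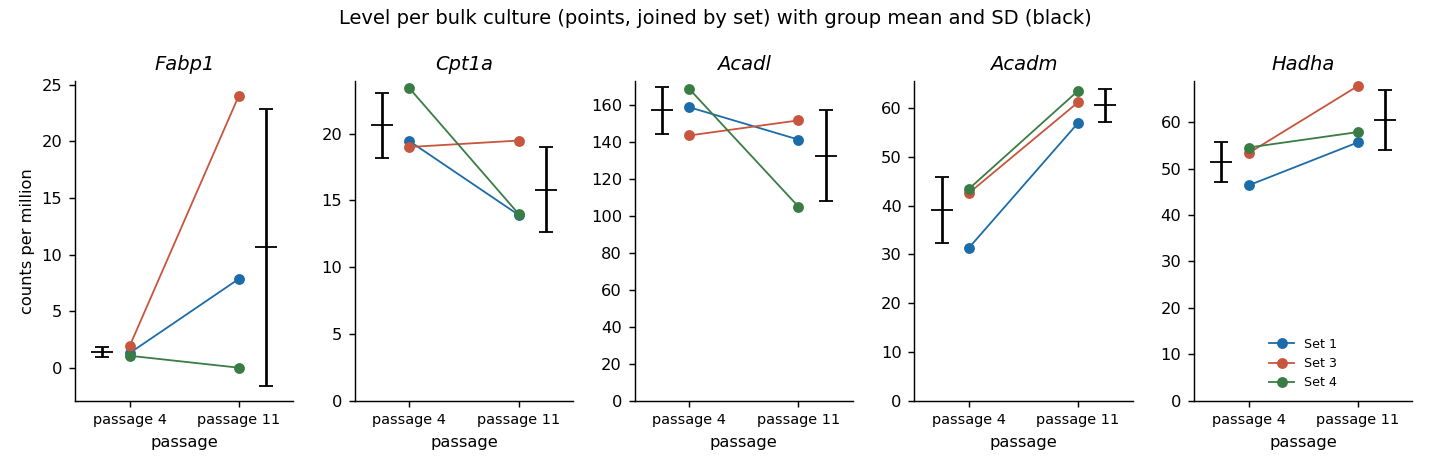
Level in CPM (vertical axis) of the 5 tested members in bulk cultures at passage 4 and passage 11, as points joined by set, with the group mean and SD in black. Acadm is higher at passage 11 in each of the 3 sets, and Fabp1 is 24.1 CPM in Set 3 and 0 in Set 4 at passage 11.

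The Acadm call was lost without the cultures of Set 3 (adjusted p 0.124) or of Set 4 (0.0657), without the Set 3 culture of passage 11 (0.0644) or of passage 4 (0.0509) alone, and with the first technical replicates alone (0.0548), while its log2 difference stayed between 0.59 and 0.69 in these fits. The Fabp1 call was lost without Set 3 (0.203), without its passage 11 culture alone (0.152), without any 1 of the passage 4 cultures (0.067 to 0.079), in DESeq2 (0.156) and in limma-voom (0.178).

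Of the 119 pathway genes 91 were tested, and 13 were higher and 4 lower at passage 11, with a median of 0.12 against -0.05 for all genes. These 17 of 91 are near the 20.3% called over all genes. Ketone body genes were higher in 4 of 5. Bdh1, which interconverts the main ketone bodies, rose 2.51-fold and Acat1 1.71-fold. Mitochondrial oxidation held only Acaa2 (0.63) and Hadh (0.60) as called among 16, and peroxisomal oxidation held Scp2 higher (0.69) and Acox2 lower (-0.72) among 17. Cpt2 differed by 0.24 (95% interval -0.10 to 0.59) and Hadhb by 0.57 (0.09 to 1.04, adjusted p 0.0905).

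Other PPAR-alpha targets went both ways at passage 11. Vnn1, a pantetheinase, was 182, 151 and 55.3 CPM against 500, 651 and 547 CPM at passage 4, and fell by 2.11 on the log2 scale (adjusted p 0.00312), a call kept in all 19 alternatives. Acot1, an acyl-CoA thioesterase, and the mitochondrial carrier Ucp2 rose 2.07-fold and 2.06-fold. Crot, the peroxisomal carnitine octanoyltransferase, fell by 0.93, and Dbi, an acyl-CoA binding protein, rose by 0.76. Pparg was the 1 receptor called, at 32.1, 30.6 and 33.7 CPM against 42.5, 45.7 and 47.2 CPM (-0.50, adjusted p 0.029). That call was kept in 9 of 19 alternatives, and was lost without the passage 11 culture of Set 1 or 3 or the passage 4 culture of Set 3 or 4. Ppard differed by -0.72 (adjusted p 0.0857), Rxra by 0.06, Angptl4 by -1.09 (0.103), Plin2 by -0.75 (0.0799) and Acadvl by -1.20 (0.0574). Pdk3 rose 2.46-fold and Pdha1, the alpha subunit of pyruvate dehydrogenase, 1.40-fold.

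Proliferation markers were higher at passage 11 for 9 of 10 genes and summed to 756 to 1137 CPM against 309 to 339 CPM. Hepatocyte markers summed to 804 to 1157 CPM against 319 to 742 CPM, with Cps1, G6pc, Pck1, Serpina1a and Serpina1b at 0 in both groups. The enterocyte list summed to 146 to 266 CPM against 62.2 to 82.4 CPM, with Lct at 0 in both groups and Alpi, Cdx1 and Sis at 0 at passage 4. Mitochondrial genes took 0.895 to 1.71% of counts at passage 11 and 1.99 to 2.63% at passage 4, and Actb stood at 2354 to 3345 CPM and 1253 to 1523 CPM, both without overlap. The part of any of these in the fatty acid genes was not tested.

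The third comparison asks how single organoids of 4 mice differ. Set 1 held the highest median levels of Hadha and Acadm. Against the mean of Sets 2 to 4, Hadha was 1.51-fold, Acadm 1.60-fold and Ppara 3.59-fold higher in Set 1, while Cpt1a and Acadl did not pass the test. Ppara passed the filter through Sets 1 and 2, where it is high, and is left out of the count. Of the other members tested, 2 of 4 were called, where 18% of 13927 genes were called, 10.3% higher and 7.73% lower. Fabp1, Ehhadh and Pdk4 were not tested. Fabp1 gave 10 counts in 6 of 35 organoids, 8 of them in Set 1, and no organoid exceeded 0.86 CPM.

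Hadha ranged from 67.6 to 111 CPM in Set 1 (median 85.1), from 33.8 to 64.6 in Set 2 (57.3), from 52.0 to 62.9 in Set 3 (56.9) and from 49.9 to 68.3 in Set 4 (65.6). Every organoid of Set 1 exceeded every organoid of Sets 2 and 3, and the lowest of Set 1 lay just under the highest of Set 4. The log2 difference to the mean of Sets 2 to 4 was 0.60 (SE 0.11, adjusted p 5.7e-05). By pair, Set 1 exceeded Set 2 by 0.68 (0.000229), Set 3 by 0.63 (0.00511) and Set 4 by 0.48 (0.00699). Sets 2, 3 and 4 did not pass the test among each other (0.252 to 0.875).

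Acadm ranged from 90.3 to 165 CPM in Set 1 (median 133), from 65.8 to 109 in Set 2 (76.8), from 63.0 to 123 in Set 3 (89.5) and from 43.5 to 101 in Set 4 (62.7). All sets overlapped with Set 1, and the difference to the mean of the others was 0.68 (SE 0.14, adjusted p 0.000323). Set 1 exceeded Set 4 by 0.94 (4.1e-05) and Set 2 by 0.60 (0.012), whereas its difference to Set 3 was 0.49 (0.0969). The Set 1 to Set 3 difference was called without organoid 3 of Set 3 (0.0499), and that of Set 3 to Set 4, 0.45, without organoid 1 of Set 3 (0.0495).

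Acadl and Cpt1a had another order, in which Set 4 was low. Acadl had medians of 126, 137, 116 and 83.9 CPM in Sets 1 to 4, and Set 4 was lower than Set 1 by 0.45 (adjusted p 0.0292), than Set 2 by 0.68 (0.000441) and than Set 3 by 0.62 (0.00793). Sets 1, 2 and 3 did not pass the test among each other. The Acadl call of Set 1 over Set 4 was lost without organoid 1, 2, 3 or 4 of Set 1 (0.0532 to 0.0588), and that of Set 3 over Set 4 without organoid 3 of Set 3 (0.0922). Cpt1a had medians of 23.1, 19.3, 21.7 and 14.2 CPM, and Set 4 was lower than Set 1 by 0.73 (0.0141) and than Set 3 by 0.76 (0.03), but not past the threshold against Set 2 (0.54, 0.0668). The call against Set 3 was lost without organoid 3 of that set, which held 39.0 CPM (0.47, 0.24), and without organoid 6 of that set (0.0532). To the mean of Sets 2 to 4, Set 1 differed by 0.02 in Acadl (95% interval -0.24 to 0.27) and by 0.30 in Cpt1a (-0.06 to 0.66).

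Ppara was near the limit of detection in all sets. It had counts in 8 of 8 organoids of Set 1 (0.57 to 1.52 CPM, 32 counts in all), in 7 of 10 of Set 2 (up to 1.82 CPM, 21 counts), in 1 of 5 of Set 3 (1 count) and in 5 of 12 of Set 4 (up to 0.68 CPM, 8 counts). It passed the filter through Sets 1 and 2, so that a difference to the other sets was built into its being tested. Set 1 exceeded Set 4 by 2.06 (adjusted p 0.00735) and Set 3 by 3.16 (0.0131), the latter against a single count. Set 2 exceeded Set 4 by 1.76 (0.0297), and the difference of Sets 1 and 2 was 0.30 (0.729). Set 2 exceeded Set 3 by 2.86 (0.0308), a call lost without organoid 1, 4, 5 or 6 of Set 3. With a minimum count of 10 it was no longer tested.

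**Figure D4:**
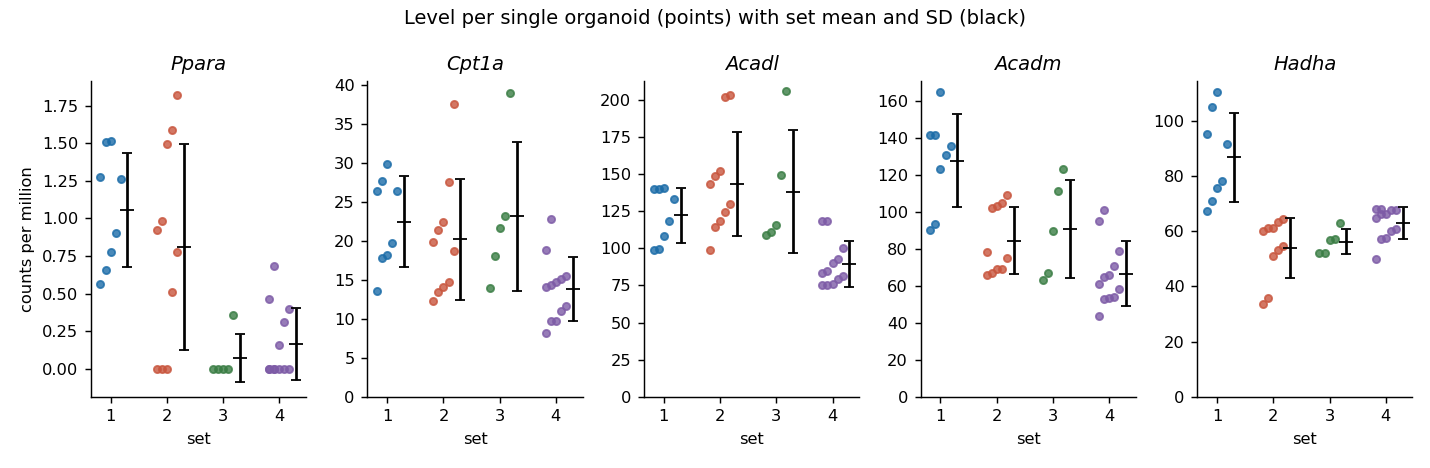
Level in CPM (vertical axis) of the 5 tested members in 35 single organoids by set, as points, with the set mean and SD in black. Hadha is 67.6 to 111 CPM in Set 1, above all organoids of Sets 2 and 3, and Acadl is lowest in Set 4.

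Over the 6 pairs of sets, 10 of 24 tests of Cpt1a, Acadl, Acadm and Hadha were called. Another 4 calls were of Ppara, where the filter partly fixed the outcome. Of all genes, 14.3% were called between Sets 1 and 2 (7.08% higher, 7.19% lower), 9.43% between Sets 1 and 3 (4.3% and 5.13%) and 20% between Sets 1 and 4 (12.4% and 7.6%). Between Sets 2 and 3 it was 3.93% (2.05% and 1.88%), between Sets 2 and 4 12.4% (7.02% and 5.35%) and between Sets 3 and 4 11.6% (7.89% and 3.67%). The values of the paired sets did not overlap for Hadha in Set 1 against Sets 2 and 3. Those of Ppara in Set 1 and Set 3 did not either, but a count of 0 in Set 3 allowed up to 0.892 to 1.63 CPM, which reaches the Set 1 values. Over all genes, non-overlap held for 1.11% and 3.69% in those pairs, and for 1.07, 0.553, 0.201 and 2.07% in Set 1 against 4, 2 against 3, 2 against 4 and 3 against 4. No member was free of overlap in Set 1 against all other organoids, where 0.266% of genes were. Without TMM factors, 35.2% rather than 45.6% of the calls between Sets 1 and 3 were higher in Set 1.

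Organoids of 1 set differed among themselves in these genes by amounts that varied by gene. The share of log2 CPM variance that lay between sets was 57.2% for Hadha, 54.8% for Acadm, 52.0% for Acadl and 33.3% for Cpt1a. The median share was 19.1% over all genes tested. It was 22.6% over the 5813 genes with an average log2 CPM from 4 to 8, the range in which these members lie. For Ppara the share was 50.7%, on 62 counts, and its passing the filter through Sets 1 and 2 partly fixed that value. The biological coefficient of variation within sets was 0.17 for Hadha, 0.22 for Acadl, 0.24 for Acadm and 0.29 for Cpt1a, and 0.28 for the median gene. For the median of the 5813 genes in that range it was 0.25. Hadha had the lowest of these, and its coefficient of variation was 7.97% in Set 3 and 9.26% in Set 4, where counting error alone gives 8.59 and 8.45%. Sets 1 and 2 varied more, at 18.5 and 20.4%, where counting error alone gives 6.3 and 9.1%. In Set 2, organoids 2 and 6 were low, at 33.8 and 35.9 CPM, where the next was 51.1 CPM. Their Actb levels, 1067 and 1040 CPM, were also the lowest of that set. Cpt1a varied up to 3.05-fold between organoids of Set 2.

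Within sets, the members' correlations were low to moderate and varied by set. Over 35 organoids and after the set means were taken out, Pearson's r was 0.53 between Acadl and Hadha, 0.47 between Acadl and Acadm, 0.46 between Cpt1a and Acadm, 0.34 between Acadm and Hadha, 0.21 between Cpt1a and Acadl and 0.15 between Cpt1a and Hadha. By set, r ran from -0.29 in Set 2 to 0.82 in Set 3 for Cpt1a and Acadl, from -0.11 in Set 1 to 0.88 in Set 3 for Cpt1a and Acadm, and from 0.12 in Set 4 to 0.87 in Set 1 for Acadl and Hadha, with 5 organoids in Set 3. These values share library depth and scaling and are a description. Log total count had an r of 0.35 with Acadl and 0.29 with Hadha, and Mki67, the proliferation marker, an r of 0.42 with Hadha. The genes most like each member among 6488 genes of at least 4 in average log2 CPM were Grsf1 (0.85), Bud13 and Cop1 for Hadha, Hpgd (0.79), Clcc1 and Leprot for Acadm, Mocs2 (0.71), Nub1 and Eif4a2 for Acadl, and Txnip (0.76) and Sema4g (0.75) for Cpt1a, followed by a gene without a symbol in the annotation, ENSMUSG00000095041. None of these was a gene of the 8 pathway lists.

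The pathway lists in Set 1 held 30 genes higher and 3 lower than in the mean of the other sets, of 93 tested, with a median of 0.30 against 0.01 for all genes. Over all genes, 10.3% were called higher and 7.73% lower. Mitochondrial oxidation outside the members was higher in 9 of 16 and peroxisomal oxidation in 9 of 17, and neither list had a gene called lower. Other PPAR-alpha targets were higher in 2 of 13, with none lower and a median of 0.16. Of 12 receptors and cofactors, 1 was higher and 1 lower, and of 9 carnitine genes 2 were higher and 1 lower. Hadhb, the partner of Hadha, had a mean of 24.6 ± 4.76 CPM (SD, n = 8) in Set 1 and 16.3 ± 3.09 CPM (n = 27) in the others, and was 1.52-fold higher (adjusted p 0.000357). Acadvl rose 1.93-fold and Acad9 1.42-fold, and Acox2, which acts on bile acid intermediates, rose 2.54-fold. Phyh and Decr2, of phytanic acid and unsaturated fatty acid breakdown, rose 1.75-fold and 1.71-fold. Cpt2 differed by 0.11 (95% interval -0.24 to 0.45).

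Upstream of oxidation, Acsl1, which activates long-chain fatty acids, rose 2.33-fold, Acsl5 1.30-fold, Slc25a20 1.55-fold and Crot 2.66-fold. Oxct1, which opens the use of ketone bodies, rose 1.61-fold and Bdh1 fell by 0.60, the latter call lost without organoid 2 or 4 of Set 1. Pparg had a median of 22.2 CPM in Set 1 and 8.33, 11.0 and 7.48 CPM in Sets 2 to 4 and rose 2.73-fold (5.75e-08), Ppargc1a, a coactivator of oxidative genes, fell by 0.98, a call lost without organoid 2, 3 or 4 of Set 1 or organoid 4 of Set 3, and Rxra (0.07), Ppard (0.19), Angptl4 (-0.07) and Plin2 (-0.12) did not pass the test. Vnn1 rose 1.98-fold, with medians of 207 CPM in Set 1, 96.5 in Set 2, 184 in Set 3 and 47.0 in Set 4. Pdk2 rose by 0.92 on the log2 scale and Pdha1 1.29-fold. Cyp4a10 and Cyp4a14, classical targets of PPAR-alpha in liver, gave 7 and 2 counts in all 35 organoids.

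In Set 1, hepatocyte markers were higher in 5 of 7 tested and proliferation markers lower in 7 of 10. Of all genes, 10.3% were called higher and 7.73% lower. The 15 hepatocyte markers summed to 583 to 2467 CPM in Set 1 (median 1248) and 563 to 1548 in Set 2 (853). They summed to 478 to 713 CPM in Set 3 (535) and 518 to 2669 in Set 4 (1468). By the median sum, Set 4 was therefore the highest. G6pc, Pck1 and Serpina1a were at 0 in every set. Enterocyte markers summed to 92.7 to 131 CPM in Set 1 and 46.0 to 98.9 CPM in the others, with Alpi, Apoa4, Lct and Sis at 0 in every set. Their part in the levels of the fatty acid genes was not tested.

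**Figure D5:**
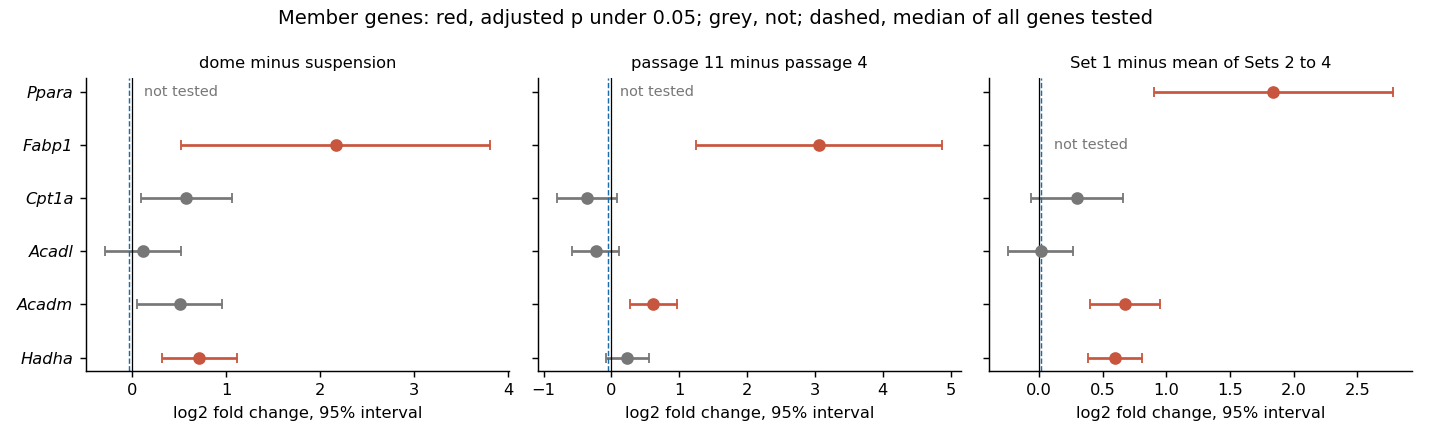
Log2 fold change with its 95% interval (horizontal axis) for the members tested in 3 comparisons, in red where the adjusted p was under 0.05, with the median of all genes as a dashed line. Hadha was called in domes (0.71) and in Set 1 (0.60) and was 0.24 and not called at passage 11, and Acadm was called at passage 11 (0.62) and in Set 1 (0.68).

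Side by side, Hadha was 0.71, 0.24 and 0.60 in the culture, passage and set comparisons and Acadm 0.50, 0.62 and 0.68, whereas Acadl was 0.12, -0.23 and 0.02. Cpt1a was 0.57, -0.36 and 0.30, none of them called. Some pathway genes were called in opposite directions at passage 11 in bulk and in Set 1 among single organoids, namely Vnn1 (-2.11 and 0.99), Crot (-0.93 and 1.41), Acox2 (-0.72 and 1.34), Pparg (-0.50 and 1.45) and Bdh1 (1.33 and -0.60). Others were called in the same direction in both, among them Pdha1 (0.49 and 0.37). The difference between these effects was not tested, since the tables were normalised separately, and in the set comparison passage and mouse cannot be told apart.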

How the data were processed

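The authors prepared 3′-end libraries with UMIs from bulk cultures and single organoids and, by the study's methods, processed them with zUMIs on the mouse genome (mm10, GRCm38). Per the labels, STAR and SAMtools 1.9 were used. The deposited values are gene counts. No source used here gives whether they hold UMIs or reads, or whether they follow the down-sampling. For single organoids, library input had been adjusted by Actb. The 7 organoids that the study left out were left out here too. Of the genes, 24, 24 and 42 in the culture, passage and single organoid tables had no symbol.

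Genes were kept by filterByExpr (minimum count 3), normalised by TMM and compared in edgeR 4.0.16 (R 4.3.3) by its quasi-likelihood test. Genes were called at a Benjamini-Hochberg adjusted p under 0.05, over all genes of a comparison, or over the 6 set pairs together. The study used limma-voom, run here as an alternative (limma 3.58.1), as was DESeq2 1.42.0. Other alternatives were RLE size factors, library totals, other filters, thinning, replicate blocks and leaving out libraries. Scripts were tested on simulated data. Besides the members, 12 partner genes were set to be named, and so were up to 3 of the largest called changes per list and comparison at an average log2 CPM of at least 2. Some of the genes this rule names are not reported here. Members and lists were chosen with earlier results of these data known. Replicate numbers were checked for pairing. Same-numbered domes and suspensions had residual correlations of 0.153, 0.165 and 0.191, and with every pair over 0.1 they deviate together. The values printed are from fits without this pairing, and a fit with it was an alternative. For Sets 1, 3 and 4 the passages came from 1 mouse each (0.111, 0.0283 and 0.108). The 3 genes most like a member were ranked over organoids after set means were subtracted. Replicates are cultures of 1 mouse or pool, and single organoids of a set share a mouse, so p-values between sets measure spread between organoids. Intervals come from the fits and hold the spread between libraries, while limits for a count of 0 (3 counts) cover counting error only.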

Additional observations from a re-analysis of the deposited data

Results flagged for a closer look

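Among 22 groups of 5 to 10 single organoids with any count of a member, 4 had 1 organoid set apart from the rest by more than Dixon's limit, which chance does in about 1 in 20 groups of continuous values. Each of the 4 rested on a single count in a gene near 0, and in 3 of them all other organoids were at 0, so that any 1 count passes the limit and that rate does not apply. Ppara was 0.361 CPM in organoid 3 of Set 3, where the others had 0. Fabp1 was 0.214 CPM in organoid 10 of Set 2, Pdk4 was 0.426 CPM in organoid 5 of Set 1, and Pdk4 was 0.542 CPM in organoid 4 of Set 3. No organoid was set apart in Cpt1a, Acadl, Acadm or Hadha by this limit in Sets 1 to 3, and Set 4 was too large to be tested.

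The difference of Fabp1 between passage 11 and passage 4 had another sign in Set 4 than in Sets 1 and 3. It was 6.56 CPM in Set 1, 22.1 CPM in Set 3 and -1.06 CPM in Set 4, and both technical replicates of each set gave that direction. The difference between sets was not tested, since each set has 1 culture per passage, and 0 counts in Set 4 at passage 11 allow up to 1.91 CPM, so that no fall is shown there.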

How the results depend on the processing

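No member reversed its direction in a called result under any alternative. In domes the 2 member calls became 1 with RLE size factors, a minimum count of 10 or DESeq2, 0 after thinning and 0 with library totals, an alternative chosen after seeing the data. They ranged from 0 to 3 when single cultures were left out, and the list calls, 38, from 25 to 41. At passage 11 the 2 member calls became 1 with a minimum count of 10, limma-voom, DESeq2 or the first technical replicate, and 0 after thinning. They ranged from 0 to 2 with cultures left out, and the 17 list calls from 3 to 18. Thinning to the smallest total left 15, 8 and 11 list calls in the dome, passage and Set 1 comparisons (38, 17 and 33). Over the 6 set pairs the 14 calls fell to 3 after thinning and 9 with all 42 organoids. Thinning also moved log2 differences, of Acadm at passage 11 from 0.62 to 0.38 and of Cpt1a in Set 3 against Set 4 from 0.76 to 0.15, and the cause was not tested. With replicate number or set as a block, the member calls stayed 2 in domes and 2 at passage 11, and the list calls were 39 and 19, and no member call changed in either. Single organoids share only a number across sets, with a median residual correlation of 0.0564, and the block gave 10 of 14 calls between sets there.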
